A study of Homo sapiens with 27 samples.

Results

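The genes described here are 50 listed genes of the G2 phase and of mitosis, from the kinases that start mitosis to the proteins that split the cell. Kinesins are left out, apart from the kinetochore motor CENPE. A gene counted as measured where the non-normalized intensity table held a probe named for it, and the probe with the highest mean over the 27 arrays stood for the gene. By this rule 47 of the 50 genes were measured, out of 17055 genes with a named probe, and CENPN, SPC24 and ESPL1 had no named probe here. All 47 passed the filter on dim probes (above background on at least 3 arrays), as 12637 genes did in all. The condensin subunit NCAPH passed it narrowly, with 5 of 27 arrays above background, and its values say little.

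Total RNA came from the neuroblastoma line SK-N-BE(2)c, of human origin and known for its MYCN amplification, and was hybridised to 27 Illumina bead arrays, 1 sample to an array. Cells were kept in hypoxia for 24, 48 or 72 h, either with PP242, which blocks the ATP site of the kinase mTOR in both of its complexes, or with the solvent DMSO, and a control stood at 0 h. The control had 4 arrays, DMSO 3 arrays at 24 h and 4 at each later time, and PP242 4 arrays at each time. The dose of PP242 and the oxygen level are not given in the sources used here. The label of the control names neither DMSO nor hypoxia. In comparisons with it, effects of hypoxia, solvent and days in culture cannot be told apart. Nothing says that samples of a group came from separate cultures. The p-values therefore rest on the spread of these samples alone, which may be technical.

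Cells that pass G2 transcribe a late wave of genes, driven by the transcription factor FOXM1 and by the MuvB complex with B-MYB, whose products build the spindle, attach chromosomes to it and part them. CDK1 with cyclin B starts mitosis, the kinetochore links each centromere to microtubules, and the spindle checkpoint holds the anaphase-promoting complex back until every chromosome is attached. In quiescent cells the same promoters are shut by the DREAM complex, so these genes are read widely as a sign of dividing cells. In RNA from whole cultures, fewer dividing cells and less RNA per cell cannot be told apart.

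Each value below is a background-corrected and quantile-normalized log2 intensity of 1 probe, and each change is a difference of group means on that scale, tested with limma and called where its Benjamini-Hochberg adjusted p over all 12637 genes was under 0.05. No share of all genes was taken for counts of 2-fold changes, of unadjusted p under 0.05 or of calls with an array left out. Such counts describe the members alone. Levels of different probes are not comparable. Between 20729 and 22843 probes per array stood above background, and the number of arrays limits the precision. Of 10 listed neuroblastoma markers 8 had a probe, and these 8, MYCN and the granin CHGA among them, were above background on all 27 arrays. Of 17 listed markers of blood, immune, endothelial, stromal and epithelial cells 14 had a probe, 10 of these were above background on at least 3 arrays, and the monocyte marker CD14 alone was on all. The epithelial marker EPCAM was above background on 23 arrays, and the stromal genes DCN and LUM on 22 and 21. Of the endothelial markers, CDH5 and VWF were above background on 0 arrays and PECAM1 on 1.

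The mitosis genes took different courses in the treatment arms. With PP242 they were lowest at 24 h and higher later, and with DMSO they lay near the control to 48 h and were lower at 72 h. PP242 at 24 h was the lowest of the 7 groups for 45 of the 47 genes, the exceptions being BUB3, lowest in DMSO at 72 h, and NCAPH, lowest in PP242 at 72 h where no array was above background. The highest group was DMSO at 24 h for 28 genes, the control for 14 and DMSO at 48 h for 5. No array of DMSO at 24 h is numbered 4, and control array 4 was the lowest of its group in 29 genes. The part of this in the ranking was not tested. Against DMSO at the same time, the median change with PP242 was -1.90 at 24 h, -0.87 at 48 h and 0.21 at 72 h. The median over all genes tested was 0.0021, -0.0066 and -0.003 at these times. The plot of the 47 courses relative to the 0 h control shows both arms side by side.

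**Figure D1:**
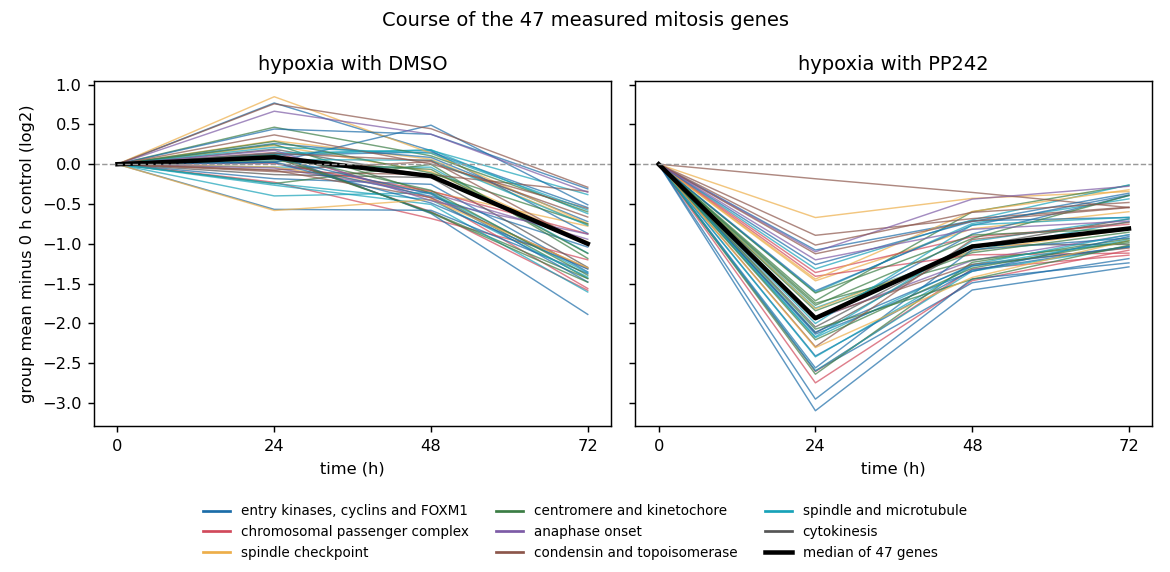
Group mean log2 intensity minus the mean of the 0 h control (vertical axis, log2) against time in hours for each of 47 mitosis genes, coloured by role, with the median as a black line. Both panels start from the same 4 control arrays. The DMSO lines lie around 0 to 48 h and drop at 72 h, and the PP242 lines are lowest at 24 h, apart from NCAPH.

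The promoters of these genes are known for pairing a cell cycle homology region, the CHR, to which the MuvB complexes bind, with CCAAT boxes, to which the factor NF-Y binds. RefSeq windows on GRCh38.p14, which run from 250 bases before to 50 bases after a gene's start, were at hand for 41 of the 50 listed genes and not for AURKA, PBK, FOXM1, BIRC5, BUB3, TTK, CENPM, UBE2C and TPX2. The windows shown are those of CDK1, the kinase that starts mitosis, of its partners CCNB1 and CCNB2 (cyclins B), of PLK1, a kinase of mitotic entry and spindle poles, of CDC20, the activator of the anaphase-promoting complex, and of the condensin subunit NCAPD2, whose change with PP242 was small. They let the letters of strongly and weakly changed genes be read side by side. All lie on the plus strand, CDK1 at chr10:60778228-60778527, CCNB1 at chr5:69166900-69167199, CCNB2 at chr15:59104896-59105195, PLK1 at chr16:23678639-23678938, CDC20 at chr1:43358731-43359030 and NCAPD2 at chr12:6493852-6494151. Each is written 5′ to 3′, and capitals mark matches, on either strand, to a CHR (TTTGAA, with the variant TTCGAA), to the box CCAAT, which reads ATTGG on the other strand, or an E2F motif spelled TTCCCGC, its variant TTGGCGC, its variant TTGCCGC or its variant TTCGCGC.
CDK1: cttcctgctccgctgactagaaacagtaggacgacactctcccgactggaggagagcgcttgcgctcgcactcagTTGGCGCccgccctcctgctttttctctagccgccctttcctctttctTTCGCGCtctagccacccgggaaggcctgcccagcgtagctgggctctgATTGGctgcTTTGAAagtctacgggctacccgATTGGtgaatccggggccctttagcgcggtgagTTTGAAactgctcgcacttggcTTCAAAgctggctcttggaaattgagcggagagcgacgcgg
CCNB1: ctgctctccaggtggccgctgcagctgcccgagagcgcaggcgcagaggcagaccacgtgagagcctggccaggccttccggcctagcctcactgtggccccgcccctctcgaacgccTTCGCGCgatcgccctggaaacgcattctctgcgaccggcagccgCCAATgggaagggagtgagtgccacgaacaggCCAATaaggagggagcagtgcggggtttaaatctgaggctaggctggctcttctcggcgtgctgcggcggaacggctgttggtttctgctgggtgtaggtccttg
CCNB2: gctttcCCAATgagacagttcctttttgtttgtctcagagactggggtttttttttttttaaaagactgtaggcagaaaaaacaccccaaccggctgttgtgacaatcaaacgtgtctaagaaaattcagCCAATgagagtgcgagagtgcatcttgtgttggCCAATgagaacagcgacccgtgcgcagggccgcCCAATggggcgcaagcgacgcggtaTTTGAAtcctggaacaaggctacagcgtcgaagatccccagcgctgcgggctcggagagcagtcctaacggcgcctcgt
PLK1: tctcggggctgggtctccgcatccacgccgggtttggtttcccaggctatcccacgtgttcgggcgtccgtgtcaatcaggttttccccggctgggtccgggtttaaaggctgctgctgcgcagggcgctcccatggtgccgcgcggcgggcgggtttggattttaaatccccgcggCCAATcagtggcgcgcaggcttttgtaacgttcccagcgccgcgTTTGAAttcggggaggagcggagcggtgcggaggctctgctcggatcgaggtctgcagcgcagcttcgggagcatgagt
CDC20: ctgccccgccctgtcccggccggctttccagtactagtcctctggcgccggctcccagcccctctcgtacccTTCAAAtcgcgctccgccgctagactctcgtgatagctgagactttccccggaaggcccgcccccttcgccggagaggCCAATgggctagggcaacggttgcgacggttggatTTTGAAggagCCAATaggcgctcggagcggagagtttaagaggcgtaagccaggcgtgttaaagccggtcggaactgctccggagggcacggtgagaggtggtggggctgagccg
NCAPD2: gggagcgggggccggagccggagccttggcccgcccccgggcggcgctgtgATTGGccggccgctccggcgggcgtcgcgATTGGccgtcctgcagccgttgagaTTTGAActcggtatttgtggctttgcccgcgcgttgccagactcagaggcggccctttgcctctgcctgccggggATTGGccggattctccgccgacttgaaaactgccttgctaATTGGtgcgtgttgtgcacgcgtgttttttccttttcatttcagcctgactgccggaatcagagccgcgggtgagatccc
No match of one motif overlapped a match of another in these 6 windows.

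The CDK1 window shown, the downstream one of 2, holds CHR matches that begin 69 and 13 bases before the start and 10 bases after it, and CCAAT boxes at 78 and 46 bases before it. The CCNB2 window holds a CHR match 29 bases before the start, preceded by CCAAT boxes at 54, 87, 120 and 244 bases. PLK1 has its CHR match at the same 29 bases before the start and a single CCAAT box at 73 bases. CDC20 has CHR matches at 65 and 178 bases and CCAAT boxes at 55 and 100 bases. The CCNB1 window holds CCAAT boxes at 55 and 87 bases and an E2F match, and no CHR in these letters. NCAPD2 holds a CHR match at 145 bases and 4 CCAAT boxes.

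Over the 41 genes with a window, 31 (75.6%) held a CHR match, compared with 16.6% of the 9947 tested genes with a window. CCAAT boxes were also found in 31 (75.6%), against 43.5% of tested genes, and at least 2 of them in 22 (53.7%, against 15.9%). Both motifs stood in 23 genes (56.1%, against 7.08%), and an E2F match in 15 (36.6%, against 23.3%). By role, CHR matches were found in 3 of 3 checkpoint genes with a window, 7 of 9 centromere and kinetochore genes, 5 of 6 condensin and topoisomerase genes, 6 of 7 spindle genes and 4 of 8 of the entry group. The median change with PP242 at 24 h was -1.92 in the 29 measured genes with a CHR match and -1.88 in the 9 measured genes without one. Genes with an E2F match had a median of -2.19 (14 genes) and those without one a median of -1.75 (24 genes), a description for which no test was made. A match of letters does not show that a factor binds there.

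**Figure D2:**
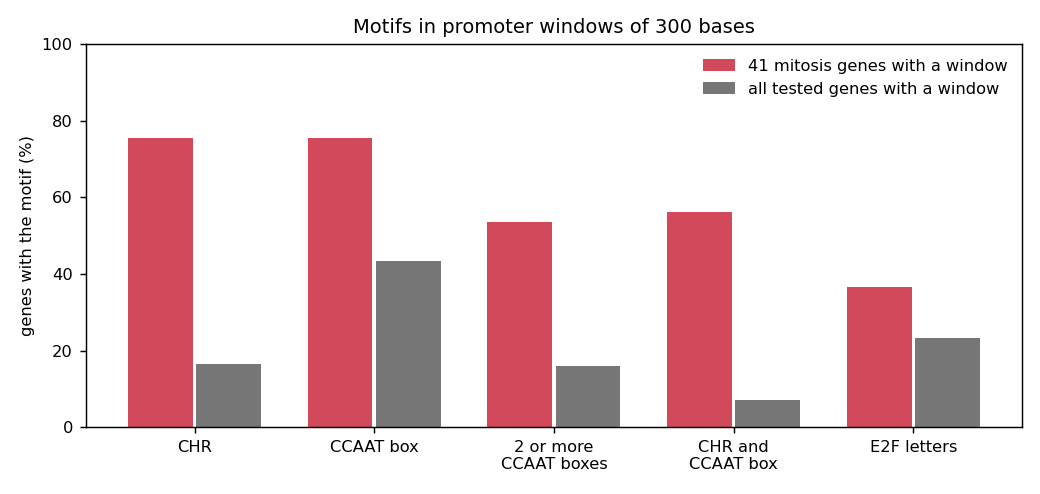
Share of genes (vertical axis, percent) whose promoter window of 300 bases holds each motif on either strand, for 41 mitosis genes (red) and the 9947 tested genes with a window (grey). The CHR stands in 75.6% of the mitosis genes and 16.6% of tested genes.

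PP242 lowered nearly the whole set at 24 h. Of the 47 genes 46 fell and none rose, where 11.3% of all genes tested fell and 10.4% rose. At least 2-fold falls numbered 44, a count given without a share of all genes. In 46 genes every PP242 array lay under every DMSO array, as in 16.6% of all genes. The changes ran from -3.33 for CDK1 to -0.09 for NCAPH. Of all genes tested, 1434 were lower and 1313 higher, against 2123 lower and 663 higher with arrays scaled to 1 median, while 46 of the 47 mitosis genes fell under both scalings. The members within each role are plotted for PP242 at each time and for DMSO at 72 h.

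**Figure D3:**
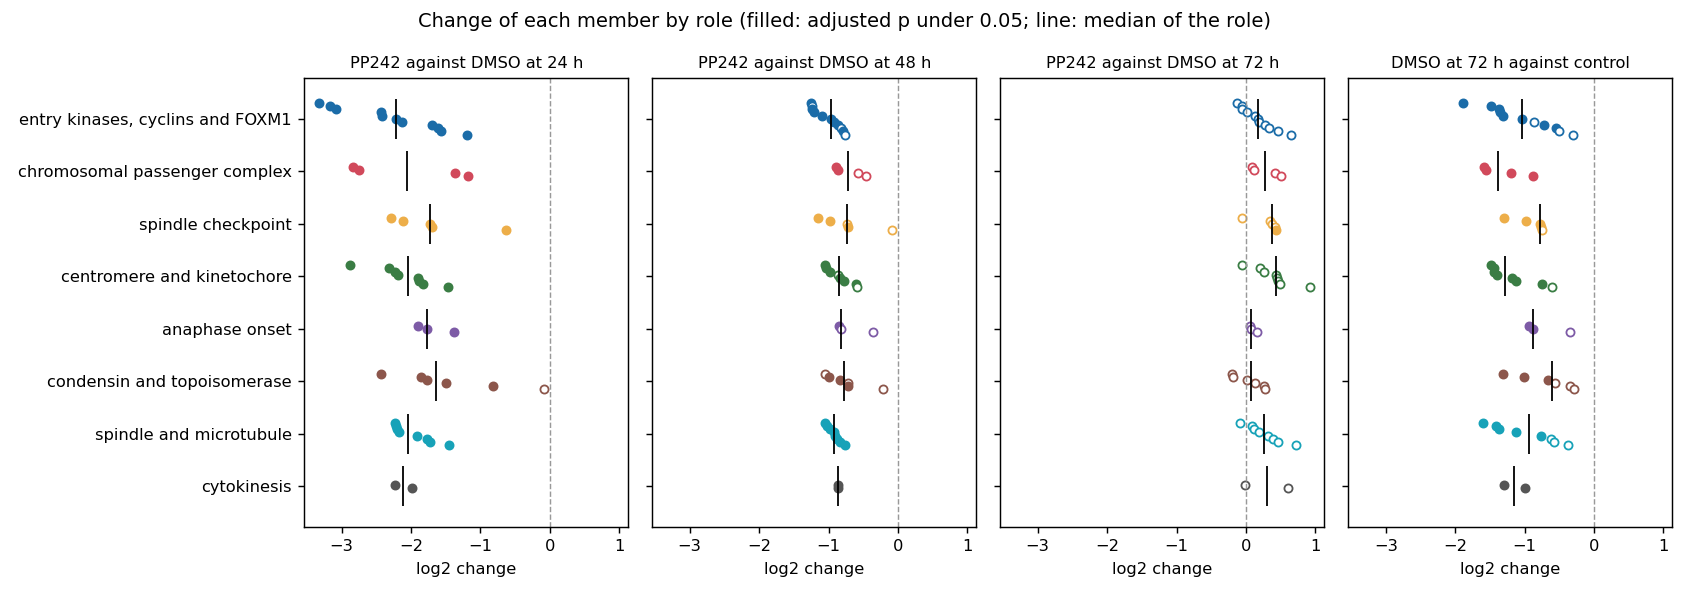
Log2 change of each of 47 mitosis genes (horizontal axis) by role (rows) in 4 comparisons, with filled points for adjusted p under 0.05 and a line at the median of the role. At 24 h all points lie below 0 and 46 are filled, at 72 h the points lie around 0 and BUB3 alone is filled.

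All 11 entry kinases, cyclins and FOXM1 fell at 24 h, by a median of 2.21 on the log2 scale. CDK1, whose window is shown above, read 10.43, 10.44 and 9.96 on the DMSO arrays and 7.27, 8.05, 6.19 and 6.28 on the PP242 arrays. The groups did not overlap, and PP242 array 2 was higher than the other PP242 arrays. CDK1 fell by 3.33 (SE 0.56, adjusted p = 7.74e-05), the largest change of the set. CCNB1, its cyclin, read 9.50, 9.45 and 9.40 on the DMSO arrays and 7.12, 7.47, 6.89 and 7.46 on the PP242 arrays, all PP242 arrays lying under the lowest DMSO array. It fell by 2.21 (SE 0.21, adjusted p = 6.7e-08). The kinase AURKA, which matures the spindle poles, read 10.17, 10.21 and 10.05 on the DMSO arrays and 7.51, 8.12, 7.39 and 7.89 on the PP242 arrays. AURKA fell by 2.42 (SE 0.23, adjusted p = 6.7e-08) without overlap.

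PLK1 read 7.95, 7.84 and 7.45 on the DMSO arrays and 6.08, 6.22, 5.94 and 5.96 on the PP242 arrays. Its arrays did not overlap either, and PLK1 fell by 1.70 (SE 0.20, adjusted p = 5.77e-07). FOXM1, the transcription factor of the late wave, read 7.89, 7.89 and 8.20 on the DMSO arrays and 5.86, 6.45, 6.53 and 6.87 on the PP242 arrays, without overlap and with PP242 array 4 nearest the DMSO arrays. It fell by 1.57 (SE 0.39, adjusted p = 0.00371), with an SE above that of most other members. The kinases PBK and MELK, both cell cycle kinases, changed by -3.17 and -3.08, and PLK4, which starts centriole duplication, by -2.13. Cyclin A, CCNA2, changed by -2.44, and NEK2, a kinase of centrosome separation, by -1.62. The least change of the group was that of CCNB2, at -1.19, and its window holds a CHR and 4 CCAAT boxes.

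The 4 genes of the chromosomal passenger complex, which corrects faulty attachments and steers cytokinesis, all fell. AURKB, its kinase, read 9.25, 9.26 and 8.91 on the DMSO arrays and 6.08, 7.05, 6.03 and 6.39 on the PP242 arrays. BIRC5, which encodes survivin and ties the complex to the centromere, read 9.37, 9.39 and 9.56 on the DMSO arrays and 6.52, 7.05, 6.25 and 6.61 on the PP242 arrays. In both, every PP242 array lay under every DMSO array. AURKB fell by 2.75 (SE 0.29, adjusted p = 1.43e-07), and BIRC5 fell by 2.83 (SE 0.24, adjusted p = 2.51e-08). CDCA8, which encodes borealin, and the scaffold INCENP changed less, by -1.18 (SE 0.22) and -1.37 (SE 0.21). Whether these 4 changes differ from each other was not tested.

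All 5 spindle checkpoint genes fell, with a median of -1.72 and a range from -2.29 to -0.64. BUB1, a checkpoint kinase of the kinetochore, read 7.70, 7.68 and 7.51 on the DMSO arrays and 5.56, 5.78, 5.22 and 5.50 on the PP242 arrays, and 3 of the 4 PP242 arrays were above background. BUB1B, which encodes BubR1 of the mitotic checkpoint complex, read 7.57, 7.85 and 7.76 on the DMSO arrays and 5.86, 6.42, 5.90 and 5.93 on the PP242 arrays. MAD2L1, the MAD2 that binds CDC20, read 10.82, 10.71 and 10.28 on the DMSO arrays and 8.97, 9.32, 7.53 and 7.44 on the PP242 arrays, with a wide spread in the PP242 group. None of these groups overlapped. BUB1 fell by 2.11 (SE 0.26, adjusted p = 1.12e-06), BUB1B fell by 1.70 (SE 0.17, adjusted p = 9.4e-08) and MAD2L1 fell by 2.29 (SE 0.57, adjusted p = 0.00418), whose SE was the largest of the 3. TTK, the kinase MPS1 that heads the checkpoint, changed by -1.72.

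BUB3, the partner that docks BUB1 and BubR1 on the kinetochore, was bright on every array and moved least of the 5. It read 11.70, 11.68 and 11.64 on the DMSO arrays and 11.14, 11.27, 10.88 and 10.88 on the PP242 arrays. The arrays did not overlap, the DMSO arrays were tight, and 2 of the PP242 arrays lay at 10.88. BUB3 fell by 0.64 (SE 0.12, adjusted p = 0.000405). Its other 2 probes changed by -0.30 and -0.074, and with the mean of its probes the change was -0.34 with an adjusted p of 0.0525, which ends the call.

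The 8 measured centromere and kinetochore genes all fell, with a median of -2.04 and a range from -2.89 to -1.47. CENPA, the histone variant that marks the centromere, read 9.10, 9.19 and 8.68 on the DMSO arrays and 6.19, 6.70, 5.92 and 5.63 on the PP242 arrays. NDC80, the microtubule-binding arm of the outer kinetochore, read 7.90, 7.84 and 7.40 on the DMSO arrays and 5.71, 6.05, 5.69 and 5.77 on the PP242 arrays. CENPF, a large protein that joins the kinetochore in G2, read 9.46, 9.21 and 9.63 on the DMSO arrays and 7.54, 8.28, 7.75 and 8.27 on the PP242 arrays. All PP242 arrays lay under all DMSO arrays in these genes, and the gap was narrowest in CENPF. CENPA fell by 2.89 (SE 0.31, adjusted p = 1.96e-07), NDC80 fell by 1.90 (SE 0.21, adjusted p = 1.96e-07) and CENPF fell by 1.47 (SE 0.34, adjusted p = 0.00232). NUF2 and SPC25, which form the NDC80 complex with NDC80 and SPC24, changed by -2.24 and -2.18. ZWINT, which brings in the RZZ complex, changed by -2.32, the motor protein CENPE by -1.88 and the centromere protein CENPM by -1.83. In SPC25 and ZWINT 3 of the 4 PP242 arrays were above background.

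Of the genes of anaphase onset CDC20 read 10.51, 10.51 and 10.22 on the DMSO arrays and 8.33, 8.81, 8.20 and 8.73 on the PP242 arrays. PTTG1, the securin that restrains separase, read 10.49, 10.29 and 9.96 on the DMSO arrays and 8.82, 9.07, 8.16 and 7.88 on the PP242 arrays. Neither gene's groups overlapped. CDC20 fell by 1.90 (SE 0.24, adjusted p = 1.75e-06) and PTTG1 fell by 1.77 (SE 0.38, adjusted p = 0.00105). UBE2C, the ubiquitin-conjugating enzyme of the anaphase-promoting complex, changed by -1.38 (SE 0.22), with 2 of its 4 PP242 arrays above background. ESPL1, which encodes separase, was not measured.

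Condensins, which compact chromosomes, and topoisomerase II, which untangles them, had the smallest median change of the 8 roles, a difference that was not tested. The 6 genes had a median of -1.63, and 5 fell. TOP2A read 11.36, 11.44 and 11.35 on the DMSO arrays and 8.65, 9.74, 8.54 and 8.89 on the PP242 arrays. NCAPG, a subunit of condensin I, read 10.31, 10.49 and 10.33 on the DMSO arrays and 8.31, 8.68, 8.44 and 8.66 on the PP242 arrays. SMC4, the ATPase of both condensins, read 8.76, 8.52 and 8.17 on the DMSO arrays and 6.86, 7.09, 6.57 and 6.31 on the PP242 arrays. These genes did not overlap between groups, and TOP2A fell by 2.43 (SE 0.27, adjusted p = 3.5e-07). NCAPG fell by 1.86 (SE 0.21, adjusted p = 3.91e-07), and SMC4 fell by 1.77 (SE 0.40, adjusted p = 0.00155). SMC2, the ATPase that pairs with SMC4, changed by -1.49 (SE 0.32).

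NCAPD2, another condensin I subunit, read 9.72, 9.56 and 9.998 on the DMSO arrays and 8.78, 9.05, 8.90 and 9.02 on the PP242 arrays. The PP242 arrays were tight and all lay under the lowest DMSO array. NCAPD2 fell by 0.82 (SE 0.24, adjusted p = 0.0147), and without DMSO 24 h array 3 its change was -0.70 with an adjusted p of 0.0754, which ends the call. NCAPH, the kleisin of condensin I, was above background on 1 of 3 DMSO arrays and 1 of 4 PP242 arrays at 24 h (log2 change -0.09, SE 0.20, adjusted p = 0.812).

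All 8 spindle and microtubule genes fell, within a range from -2.23 to -1.45, with a median of -2.05. TPX2, which activates AURKA on the spindle, read 8.96, 9.09 and 9.08 on the DMSO arrays and 6.62, 7.40, 6.59 and 6.71 on the PP242 arrays. PRC1, the bundler of the central spindle, read 11.23, 10.84 and 10.98 on the DMSO arrays and 8.82, 9.28, 8.58 and 8.48 on the PP242 arrays. CKAP2, a microtubule-stabilising protein, read 9.29, 9.36 and 8.85 on the DMSO arrays and 7.73, 8.25, 7.33 and 7.55 on the PP242 arrays. The PP242 arrays were under the DMSO arrays in each, with array 2 the highest of the PP242 arrays in TPX2. TPX2 fell by 2.21 (SE 0.23, adjusted p = 1.55e-07), PRC1 fell by 2.23 (SE 0.21, adjusted p = 6.12e-08) and CKAP2 fell by 1.45 (SE 0.21, adjusted p = 7.59e-06). NUSAP1 and DLGAP5, which bundle and stabilise spindle microtubules, changed by -2.18 and -2.20. ASPM, a spindle pole protein, changed by -1.77, HMMR, a spindle assembly factor, by -1.73 and CKAP2L, a relative of CKAP2, by -1.91.

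Both cytokinesis genes fell. ANLN, the anillin that scaffolds the contractile ring, read 8.43, 8.45 and 8.41 on the DMSO arrays and 6.17, 6.89, 5.72 and 6.005 on the PP242 arrays, and fell by 2.23 (SE 0.28, adjusted p = 1.11e-06). The groups did not overlap. ECT2, the exchange factor that switches on RHOA at the cleavage plane, changed by -1.99 (SE 0.23).

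**Figure D4:**
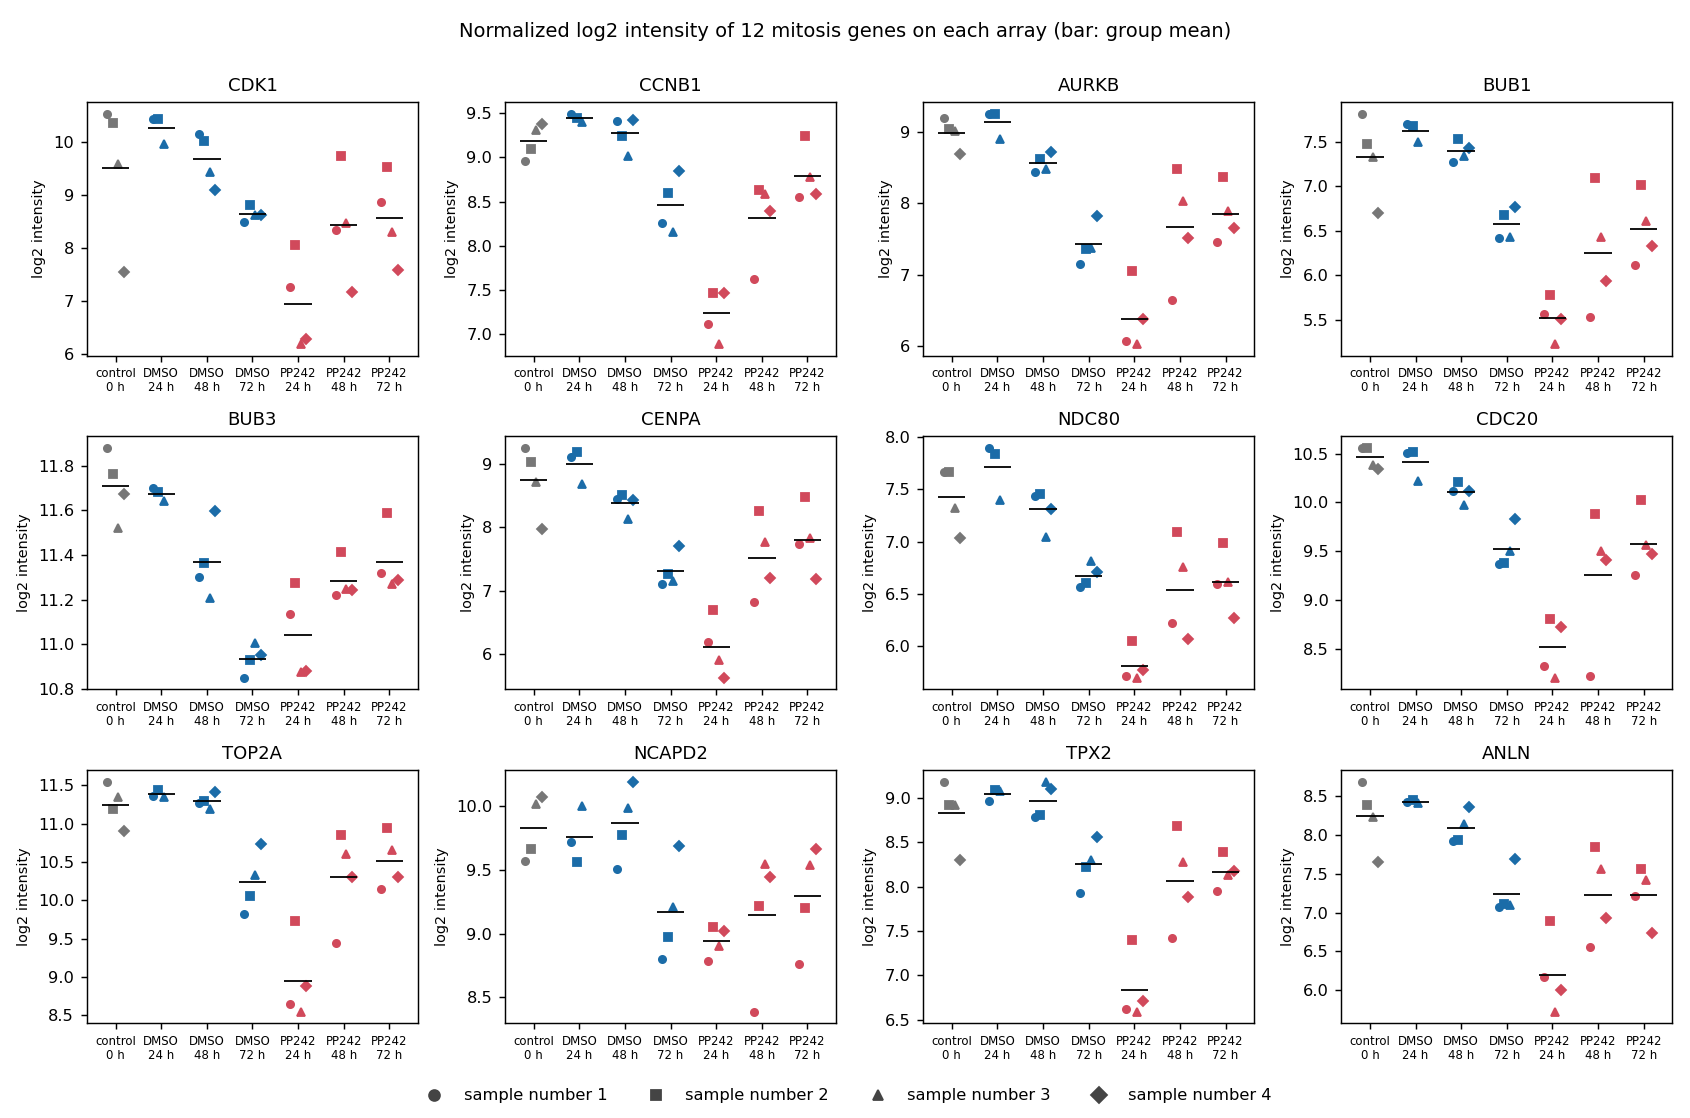
Normalized log2 intensity (vertical axes, each gene on its own scale) of 12 mitosis genes on each of 27 arrays in 7 groups, with the marker shape giving the sample number and a bar at the group mean. The PP242 arrays at 24 h lie under the DMSO arrays at 24 h in all 12 panels, and BUB3 and NCAPD2 span the smallest ranges.

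Set side by side at 24 h, the medians were -2.04 for centromere and kinetochore genes, -1.72 for the checkpoint, -1.63 for condensin and topoisomerase genes and -2.05 for spindle genes. The ranges of these roles overlapped, and the medians are given without a test. The share of each role that fell was 8 of 8, 5 of 5, 5 of 6 and 8 of 8. BUB3, NCAPD2 and NCAPH were the members that fell by less than 2-fold or were not called.

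At 48 h the set was still lower with PP242, by smaller amounts. Of the 47 genes 33 fell and none rose, where 5.83% of all genes fell and 4.43% rose, and the arrays of 25 did not overlap, against 7.82% of all genes with lower PP242 arrays. The median was -0.87, 9 genes fell at least 2-fold, and all 47 estimates were negative. Of all genes tested, 737 were lower and 560 higher, against 981 lower and 236 higher with arrays scaled to 1 median. PP242 48 h array 1 was the lowest of its group in 38 genes, and without it 17 of the 47 fell. With the sample number as a block 42 fell, where 11% of all genes fell in that fit.

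By role, the counts at 48 h were as follows. All 8 spindle genes and both cytokinesis genes fell, as did 6 of 8 centromere and kinetochore genes, 8 of 11 of the entry group, 3 of 5 checkpoint genes, 3 of 6 condensin and topoisomerase genes, 2 of 4 passenger genes and 1 of 3 genes of anaphase onset. With the sample number as a block, all 8 centromere and kinetochore genes and all 11 of the entry group fell. So did 5 of 6 condensin and topoisomerase genes, 3 of 4 passenger genes and 2 of 3 genes of anaphase onset. The counts of the other roles stayed the same, and 11% of all genes fell in that fit. PLK1 read 7.93, 7.86, 7.59 and 7.36 on the DMSO arrays and 5.93, 6.98, 6.82 and 6.62 on the PP242 arrays and fell by 1.10 (SE 0.18, adjusted p = 0.000189) without overlap. BUB1 read 7.28, 7.54, 7.34 and 7.44 on the DMSO arrays and 5.53, 7.10, 6.43 and 5.94 on the PP242 arrays. Its PP242 arrays lay below all DMSO arrays and spread widely, and BUB1 fell by 1.15 (SE 0.24, adjusted p = 0.00194). PRC1 read 10.97, 10.99, 11.02 and 11.05 on the DMSO arrays and 9.34, 10.57, 10.34 and 9.71 on the PP242 arrays, and fell by 1.02 (SE 0.19, adjusted p = 0.000706). CENPE fell by 1.05 (SE 0.22, adjusted p = 0.00213), and NEK2, with the largest change of the set at this time, fell by 1.26 (SE 0.26, adjusted p = 0.00142).

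Several genes that changed most at 24 h were not called at 48 h. CDK1 read 10.15, 10.03, 9.44 and 9.10 on the DMSO arrays and 8.34, 9.75, 8.47 and 7.18 on the PP242 arrays, so that PP242 array 2 lay among the DMSO arrays and array 4 far under the others. Its change was -1.24 (SE 0.52, adjusted p = 0.141, blocked by sample number 0.00423). CENPA read 8.45, 8.51, 8.13 and 8.43 on the DMSO arrays and 6.82, 8.26, 7.77 and 7.21 on the PP242 arrays, where PP242 array 2 again reached the DMSO arrays. CENPA changed by -0.87 (adjusted p = 0.0514, blocked 0.00771). FOXM1 (-0.77, adjusted p = 0.194, blocked 0.00107), PTTG1 (-0.81, 0.153, blocked 0.0085), SMC4 (-1.05, 0.0682, blocked 0.000927) and CENPF (-0.60, 0.275, blocked 0.0348) were likewise not called in the fit without the block. MELK, INCENP and SMC2 were also called with the block and not without it. Without PP242 48 h array 2 CDK1 (adjusted p = 0.0376), CENPA (0.0106), PTTG1 (0.0412) and SMC4 (0.0117) were called, and SMC4 also without DMSO 48 h array 4 (0.0418). MAD2L1 was called in neither fit (-0.73, adjusted p = 0.453).

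BUB3 read 11.30, 11.37, 11.21 and 11.60 on the DMSO arrays and 11.22, 11.41, 11.25 and 11.24 on the PP242 arrays at 48 h. The arrays overlapped, and the change was -0.087 with a 95% interval from -0.32 to 0.15 (adjusted p = 0.735). NCAPD2 read 9.51, 9.78, 9.98 and 10.19 on the DMSO arrays and 8.39, 9.22, 9.55 and 9.45 on the PP242 arrays, with overlap, and fell by 0.72 (SE 0.22, adjusted p = 0.0389). Leaving out PP242 array 1 or 2 or DMSO array 2, 3 or 4 ended its call, with adjusted p between 0.0532 and 0.206. AURKB, at -0.89, and ANLN, at -0.87, lost theirs without PP242 array 1 or 4 or DMSO array 3 or 4 (AURKB also without DMSO array 2), with adjusted p of up to 0.169 and 0.14. BIRC5, CDC20 and TOP2A lost theirs without PP242 48 h array 1 (adjusted p = 0.0669, 0.0746 and 0.0699).

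At 72 h the difference between PP242 and DMSO was called in 1 gene of the set. None of the 47 genes fell and BUB3 rose, where 5.49% of all genes fell and 3.4% rose, and 8 members had an unadjusted p under 0.05. The median change was 0.21 with a range from -0.20 to 0.92, and 38 of 47 estimates were above 0. BUB3 read 10.85, 10.93, 11.01 and 10.95 on the DMSO arrays and 11.32, 11.59, 11.27 and 11.29 on the PP242 arrays, without overlap, PP242 array 2 being the highest. It rose by 0.43 (SE 0.12, adjusted p = 0.0145). The call was lost without PP242 72 h array 2 (0.36, adjusted p = 0.0655), with the mean of its probes (0.25, 0.197) and with arrays scaled to 1 median (0.40, 0.164), so no member was called under these settings. Without DMSO 72 h array 4 or PP242 72 h array 1, 3 members rose.

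With the sample number as a block, 6 of 47 members rose at 72 h, where 7.74% of all genes rose in that fit, so the count is given as a description of single genes and not of the set. They were BUB3 (blocked adjusted p = 0.00428), CENPF (0.92, 0.00154), ECT2 (0.61, 0.00898), CKAP2L (0.72, 0.0116), CENPM (0.45, 0.0362) and FOXM1 (0.47, 0.0467). CENPF read 7.90, 8.18, 8.62 and 9.27 on the DMSO arrays and 8.86, 9.30, 9.68 and 9.80 on the PP242 arrays, with overlapping arrays and an adjusted p of 0.0745 when not blocked. Leaving out DMSO 72 h array 4 gave 0.0225 and leaving out PP242 72 h array 1 gave 0.0432. CDK1 read 8.49, 8.82, 8.62 and 8.62 on the DMSO arrays and 8.87, 9.54, 8.31 and 7.60 on the PP242 arrays. The PP242 arrays lay on both sides of the DMSO arrays, and the change was -0.059 with a 95% interval from -1.13 to 1.01. For CCNB1 it was 0.33 (-0.074 to 0.73), for TOP2A 0.28 (-0.24 to 0.80) and for PLK1 -0.055 (-0.43 to 0.32), intervals that leave out the changes these genes showed at 24 h.

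In DMSO cells the mitosis genes stayed near the 0 h control through the first days of hypoxia. Against the 0 h control none of the 47 genes was called at 24 h in limma or with the block, where 0.182% of all genes fell and 0.839% rose (1.28% and 1.58% with the block), and 2 had an unadjusted p under 0.05. The median was 0.087, with a range from -0.58 to 0.85. At 48 h 3 genes fell, CDCA8 (by 0.68, adjusted p = 0.0214), CENPM (by 0.60, 0.0198) and BUB3 (by 0.34, 0.0457), where 7.11% of all genes fell and 6.75% rose. The median at 48 h was -0.15, and with the block 7 of 47 genes fell, FOXM1, BIRC5, SPC25 and UBE2C being the others, where 12.4% of all genes fell in that fit. Both counts lie near the share of all genes. The call of BUB3 was lost without any one of control arrays 1, 2 and 4 or DMSO arrays 1, 2 and 3 (adjusted p of up to 0.151) and with the mean of its probes (-0.12, 0.59). The count of 3 was 0 without DMSO 48 h array 3 and 1 without control array 1, control array 2 or DMSO 48 h array 2. Of all genes tested, 899 were lower and 853 higher, against 1184 lower and 497 higher with arrays scaled to 1 median.

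By 72 h most of the set was lower in DMSO cells than in the control. Of the 47 genes 35 fell and none rose, where 13.4% of all genes fell and 11.3% rose. The median was -1.0, 23 falls were at least 2-fold, and the arrays of 32 genes did not overlap, against 12.7% of all genes. Of all genes tested, 1692 were lower and 1427 higher, against 2173 lower and 898 higher with arrays scaled to 1 median. All 4 passenger genes and both cytokinesis genes fell, with 7 of 8 centromere and kinetochore genes, 4 of 5 checkpoint genes, 8 of 11 of the entry group, 5 of 8 spindle genes, 2 of 3 genes of anaphase onset and 3 of 6 condensin and topoisomerase genes. The role medians were -1.38, -1.15, -1.29, -0.78, -1.04, -0.94, -0.88 and -0.61 in that order.

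MELK had the largest fall at 72 h (log2 change -1.89, SE 0.33, adjusted p = 6.86e-05), and BIRC5 and AURKB fell by 1.58 and 1.56. BUB3 read 11.88, 11.76, 11.52 and 11.67 on the control arrays and 10.85, 10.93, 11.01 and 10.95 on the DMSO arrays at 72 h. These groups did not overlap, and BUB3 fell by 0.78 (SE 0.12, adjusted p = 8.71e-06), beside changes of BUB1 (-0.76) and NDC80 (-0.75). The other probes of BUB3 changed less in this comparison, by -0.27 and -0.17, so the size of its fall rests on the probe used. CDK1 read 10.54, 10.36, 9.58 and 7.55 on the control arrays and 8.49, 8.82, 8.62 and 8.62 on the DMSO arrays at 72 h, and control array 4 lay under all of the DMSO arrays. CDK1 was not called (log2 change -0.87, SE 0.52, adjusted p = 0.255). Without control array 4 the change was -1.52 (adjusted p = 0.0145). MAD2L1 read 10.67, 10.69, 10.10 and 7.58 on the control arrays and 9.04, 9.16, 8.93 and 8.92 on the DMSO arrays at 72 h, with the same control array at the bottom. Its change of -0.75 (adjusted p = 0.353) became -1.47 (adjusted p = 0.0135) without it.

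PLK1 (-0.31, adjusted p = 0.253), CKAP2 (-0.38, 0.161), SMC4 (-0.29, 0.648) and PTTG1 (-0.35, 0.541) were not called against the control, although each fell with PP242 at 24 h. TPX2 just missed the threshold (-0.58, adjusted p = 0.052) and was called without control array 4 (-0.75, 0.0112) or DMSO 72 h array 4 (-0.68, 0.0346). NCAPD2 read 9.57, 9.66, 10.02 and 10.07 on the control arrays and 8.80, 8.97, 9.21 and 9.69 on the DMSO arrays at 72 h, with DMSO array 4 inside the control arrays, and fell by 0.66 (SE 0.22, adjusted p = 0.0299). Its call was lost when any of control arrays 3 and 4 or DMSO arrays 1, 2 and 3 was left out, and that of BUB1 without control arrays 1 or 2 or DMSO arrays 1 or 3. Across the 47 genes, the change with PP242 at 24 h and that with DMSO at 72 h against the control, which share no array, had a Pearson r of 0.505 and a Spearman rho of 0.472. Over all 12637 genes these were 0.423 and 0.361, and genes are not independent replicates.

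Between 24 and 72 h the genes moved in both arms, up with PP242 and down with DMSO. From 24 to 72 h with PP242, 35 of the 47 genes rose and none fell, where 3.09% of all genes rose and 2.85% fell, and 28 rose at least 2-fold. From 24 to 72 h with DMSO, 37 fell and none rose, where 8.78% of all genes fell and 7.84% rose. The medians were 1.12 with PP242 and -1.05 with DMSO. For DMSO over these times 1110 were lower and 991 higher, against 1767 lower and 545 higher with arrays scaled to 1 median among all genes, and 46 members fell under that scaling. With the block 46 members fell, where 13% of all genes fell in that fit. All 8 spindle genes, all 8 centromere and kinetochore genes, both cytokinesis genes and 9 of 11 of the entry group rose with PP242, and 3 of 5 checkpoint genes, 2 of 4 passenger genes, 2 of 6 condensin and topoisomerase genes and 1 of 3 genes of anaphase onset.

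On the PP242 arrays PBK rose by 1.81 (SE 0.29, adjusted p = 0.000341), and CENPA, which read 6.19, 6.70, 5.92 and 5.63 at 24 h and 7.73, 8.49, 7.82 and 7.18 at 72 h, rose by 1.70 (SE 0.29, adjusted p = 0.000482). BIRC5 rose by 1.67 (SE 0.22, adjusted p = 5.47e-05), CCNB1 rose by 1.56 (SE 0.20, adjusted p = 3.76e-05) and TOP2A rose by 1.56 (SE 0.25, adjusted p = 0.000364). CCNB1 read 7.12, 7.47, 6.89 and 7.46 at 24 h and 8.56, 9.24, 8.78 and 8.59 at 72 h, and TOP2A read 8.65, 9.74, 8.54 and 8.89 at 24 h and 10.15, 10.95, 10.66 and 10.31 at 72 h. The times did not overlap in CENPA, CCNB1 and TOP2A. The level reached at 72 h with PP242 was still under the 24 h level with DMSO on every array of CENPA and TOP2A. CDK1, which read 7.27, 8.05, 6.19 and 6.28 at 24 h and 8.87, 9.54, 8.31 and 7.60 at 72 h, overlapped between the times (log2 change 1.63, adjusted p = 0.0633, blocked 0.000524), and was called without PP242 24 h array 2 (0.0236) or PP242 72 h array 4 (0.0357). CCNB2 (0.41, adjusted p = 0.216), CDCA8 (0.29, 0.514), PTTG1 (0.82, 0.202, blocked 0.0116) and SMC4 (0.54, 0.511) were among those not called.

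The change of the PP242 effect between times was tested as a difference of differences. From 24 to 72 h it rose in 45 of 47 genes, where 7.59% of all genes rose and 7.69% fell, with a median of 2.17. NCAPD2 and NCAPH were not called, and NCAPD2 was with the block (1.05, adjusted p = 0.000245). From 24 to 48 h it rose in 22 genes, where 2.7% of all genes rose and 2.4% fell, with a median of 1.12. With the block it rose in 32 genes, where 5.73% of all genes rose in that fit. The count of 22 was 13 without DMSO 24 h array 1 or without DMSO 24 h array 2 and 14 without PP242 48 h array 2. Of all genes tested, 972 were lower and 959 higher, against 545 lower and 1142 higher with arrays scaled to 1 median for the later step, and 303 were lower and 341 higher, against 166 lower and 295 higher with arrays scaled to 1 median for the earlier one. CENPA moved most from 24 to 72 h (by 3.38, SE 0.42), followed by BIRC5 (3.34), CDK1 (3.27) and AURKB (3.17) among the 24 genes given by array. These differences share arrays with the comparisons at each time and are no separate evidence of them.

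Arrays of a group differed together in these genes, and whether they did so over all genes was not examined. Among the PP242 arrays, array 2 was the highest of its group in 41 genes at 24 h, 39 at 48 h and 41 at 72 h, with median deviations of 0.39, 0.55 and 0.41 from the group mean. PP242 48 h array 1 deviated by -0.65. Control array 4 was the lowest of its group in 29 genes, and DMSO 72 h array 4 the highest in 35. The plot of each array against its group shows that the spread was wider with PP242 than in DMSO at 24 and 48 h.

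**Figure D5:**
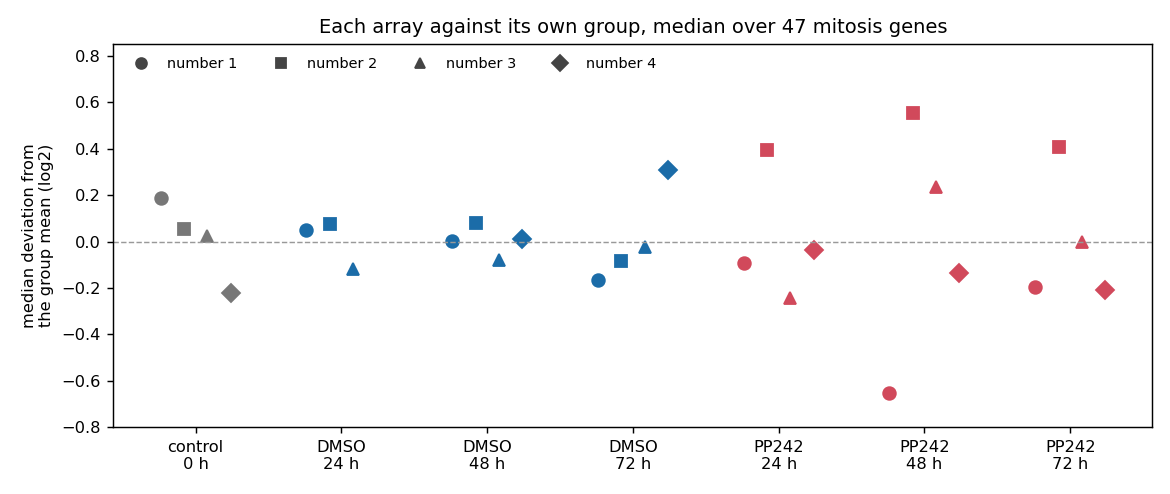
Median over 47 mitosis genes of the deviation of each array from the mean of its group (vertical axis, log2), for 27 arrays in 7 groups, with marker shapes for the sample number. Array 2 is the highest point in each PP242 group, and PP242 48 h array 1 is the lowest point of all.

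The sample number itself went with some members and with many other genes. The counts of members below are a description of single genes and not of the set. In the fit with the number as a block, number 4 differed from number 1 in 14 of the 47 genes, 5 lower and 9 higher, where 18% of all genes were lower and 18.2% higher. The genes lower at number 4 were MAD2L1 (-1.37), CDK1 (-1.24), SMC4 (-0.91), PTTG1 (-0.85) and SMC2 (-0.69), and those higher were led by FOXM1 (1.21) and CENPF (0.94). Number 3 differed from number 1 in 6 members, all higher, where 7.23% of all genes were lower and 9.4% higher, and number 2 in none, where 0.253% were lower and 0.491% higher. No DMSO array at 24 h bears number 4, and the blocked change at 24 h takes the number into account. With the block CDK1 changed by -3.03 at 24 h (adjusted p = 7.83e-08) and MAD2L1 by -1.98 (adjusted p = 5.98e-05).

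Genes outside the set were read from lists of the same pathways. Of all genes tested, 11.3% fell and 10.4% rose with PP242 at 24 h, the shares against which the counts of these lists stand. Of 20 other measured G2 and mitosis genes 19 fell with PP242 at 24 h (median -1.70), among them TRIP13, a checkpoint ATPase (-2.31), the cell division genes CDCA3 (-2.28) and CDCA2 (-1.94), and RACGAP1, a central spindle protein (-1.55). At 72 h 2 of them rose and none fell, where 3.4% of all genes rose and 5.49% fell. With DMSO at 72 h 17 of the 20 were lower than in the control, where 13.4% of all genes were. Of 19 further centromere and outer kinetochore proteins, many of them present through the whole cycle, 10 fell and none rose (median -0.74), with CENPW at -2.21 and KNL1, the docking protein of the BUB kinases, at -0.95. Of 10 cohesin and condensin II genes 2 fell, the condensin II subunits NCAPG2 (-2.09) and NCAPD3 (-1.67). The count is too small to set against the share of all genes, and the list median was -0.17. Of 12 core subunits of the anaphase-promoting complex 3 fell and 2 rose, CDC16 by 0.72. These counts are too small to set against the shares of all genes. The median of -0.21 for these core subunits stood beside -1.77 for CDC20, UBE2C and PTTG1, a difference that was not tested.

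Markers of other cells moved in part with PP242. Of the 10 measured here 3 were lower at 24 h, CD14 (-0.90) and the stromal genes DCN (-1.38) and LUM (-1.33), and none was higher, where 11.3% of all genes were lower and 10.4% higher. Their summed deposited intensity over 14 probes ran from 1664 to 1873 on the DMSO arrays and from 1453 to 1518 on the PP242 arrays at 24 h. Of the 8 neuroblastoma markers PHOX2A, a sympathetic transcription factor, rose (0.55, adjusted p = 0.0145) and none fell, with sums from 45867 to 53840 with DMSO and from 39706 to 56062 with PP242. The part of these markers in the changes of the mitosis genes was not tested. Further probes were at hand for 18 of the 47 mitosis genes, 21 in all, and all 21 were lower with PP242 at 24 h in their group means. The agreement is of sign alone, as their changes ran from -2.92 (MELK) to -0.074 (BUB3). Some were smaller than that of the probe used, as in SMC2 (-0.71 against -1.49). Others were larger, as in NUSAP1 (-2.64 against -2.18).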

How the data were processed

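Per the labels' protocols, total RNA was extracted with TRIZOL and RNeasy columns and amplified to biotinylated cRNA. The deposited intensity table holds 1 linear signal per probe for 48107 probes on 27 arrays and was not normalized by the authors. A deposited value table of 27367 probes differed by at most 2.12% from these intensities after quantile normalization. Scanner software and probe filters are not given in the sources used here, and detection p-values were not used.

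Array medians of intensity ran from 98 to 113. The background of each array was estimated from the mode of its probe signals (92.4 to 106, density bandwidth 1.5) and the spread under it (SD 4.77 to 6.13), and a probe counted as above background at a one-sided p of 0.05. Intensities were corrected with normexp (offset 16), quantile normalized and log2 transformed in limma 3.58.1 under R 4.3.3. Probes above background on at least 3 arrays were kept (31241), named from the platform annotation (23495 of the value table's probes have 1 gene symbol, 1 has several and 3871 have none) and reduced to the brightest probe of a gene. 1 model over 7 groups was fitted to 12637 genes with moderated statistics (lmFit and eBayes), and p-values were adjusted by Benjamini-Hochberg, with a threshold of 0.05. The code was tested on simulated data. Promoter windows are RefSeq's on GRCh38.p14, and figures were drawn with matplotlib 3.10.9.

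Groups and sample numbers came from the sample descriptions, and the sample titles tied the columns of the intensity table to the samples. After group means were removed, samples of the same number correlated across genes by over 0.1 in every pair in 9 of 10 comparisons. In DMSO at 72 h against the control the lowest pair was 0.0984. The reported counts come from the fit without the block, and blocked counts and p-values, where printed, are named as such. The members and lists were chosen with earlier results of these data known. All 50 listed genes are accounted for by role, 24 of them are given by array, and from each other list up to 4 genes with the smallest p in PP242 against DMSO at 24 h are named. Alternatives covered background correction, scaling, the probe filter, the probe of a gene, the deposited value table, the samples fitted, the sample number as a block, the eBayes options and leaving out each array.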

Additional observations from a re-analysis of the deposited data

Results flagged for a closer look

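In 6 of 144 groups of 4 arrays, 1 array stood apart from the others by more than Dixon's critical value of 0.829, and chance gives this in about 1 group in 20. PP242 array 2 was high in BUB1B (6.42) and TPX2 (7.40) at 24 h, and in BUB3 at 48 h (11.41) and 72 h (11.59). Control array 4 was low in PTTG1 (8.24), and DMSO 72 h array 4 was high in ANLN (7.69).

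The PP242 effect differed between 24 and 48 h, by the limma test of the difference itself, in 12 of the 24 genes given by array. The differences on the log2 scale, later minus earlier, were 2.02 in CENPA, 1.97 in BIRC5, 1.86 in AURKB, 1.44 in TOP2A, 1.37 in ANLN and 1.31 in TPX2. In CCNB1 the difference was 1.25, in PRC1 1.21, in AURKA 1.18, in NDC80 1.13, in NCAPG 1.02 and in BUB1B 0.98. The call of ANLN was lost in leave-one-out fits, with an adjusted p of 0.0838 without PP242 48 h array 2.

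Between 24 and 72 h the effect differed in 23 of these 24 genes, NCAPD2 being the other. It was 3.38 in CENPA, 3.34 in BIRC5, 3.27 in CDK1 and 3.17 in AURKB. MAD2L1 (2.72), TOP2A (2.71), AURKA (2.58), CCNB1 (2.54), CENPF (2.39), PRC1 (2.31), ANLN (2.23), TPX2 (2.12), NCAPG (2.11), BUB1B (2.08), BUB1 (2.05) and FOXM1 (2.03) followed. The smaller differences were 1.96 in CDC20, 1.85 in NDC80, 1.84 in PTTG1, 1.65 in PLK1, 1.58 in SMC4, 1.58 in CKAP2 and 1.07 in BUB3. The call of SMC4 was lost without any one of several arrays, with an adjusted p of up to 0.12, that without DMSO 24 h array 1.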

How the results depend on the processing

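Of the counts of mitosis genes called, 194 stayed within 1.5 times the reported count under the alternatives that kept all arrays and 6 did not. Most of the 194 were counts of 0 that stayed 0, such as genes higher with PP242 at 24 h, and say little of stability. The gene higher with PP242 at 72 h became 0 with arrays scaled to 1 median or with the mean of a gene's probes, and 6 in the fit blocked by sample number. The 3 genes lower with DMSO at 48 h became 6 without background correction and with the authors' deposited value table, and 7 with the block. The cause was not tested. The block, which pairs samples by number, moved no other count of mitosis genes by over 1.5 times. With it DMSO at 72 h against the control, where the numbers do not pair by the rule used, had 41 lower genes against 35. Over all genes tested 2332 were lower in that comparison with the block and 1692 without it. For PP242 at 48 h the block also called more among all genes, 1394 lower and 1119 higher, against 737 and 560.

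Leaving out 1 array at a time, 17 to 39 genes were lower with PP242 at 48 h, 0 to 3 were higher at 72 h, 0 to 4 were lower with DMSO at 48 h, and the effect rose from 24 to 48 h in 13 to 32. PP242 at 24 h lowered 45 to 46 genes, and DMSO at 72 h against the control 32 to 39. The median change at 24 h was -1.47 without background correction and -1.45 in the authors' deposited value table, against -1.90. Of 4584 values of single genes under alternatives, 60 changed sign, all of them called in neither fit, and 0 called values did. Signals near background, as in NCAPH and in some PP242 arrays at 24 h, can understate a change. Whether they did so here was not tested.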
